A study of Mus musculus with 2 samples.

Results

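The genes described here encode assembly factors of the large (60S) ribosomal subunit and general nucleolar proteins. They were taken by gene symbol from a list of 36 names, of which 35 were found among the 12836 genes of the deposited table. Nog1 was the name without a match, and Gtpbp4, the gene for the mouse protein of that role, was in the list under its own symbol. The expression values played no part in the rule, but earlier results of these libraries were known when the list was drawn up.

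RNA was compared between morulae of ICR mice injected with dsNat10, a double-stranded RNA against Nat10, and morulae of the same strain injected with dsGFP, a double-stranded RNA against a jellyfish sequence that mouse cells lack. Nat10 is the enzyme that acetylates cytidine in RNA. The labels mention 50 injected morulae without saying whether the number is per library, and each group was 1 pooled polyadenylated RNA library made by SMART-seq2. No age in hours, parental genotype or uninjected sample is given in the sources used here. With 1 library per group, no difference has a replicate check and no p-value is given, and fewer cells and less RNA per cell cannot be told apart.

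The large subunit is built in the nucleolus, where ribosomal RNA is transcribed and where its precursor is folded, cut and bound by ribosomal proteins. Many helper proteins join and leave the particle in turn. Some hold early folds of the precursor RNA, DEAD-box helicases remodel it, GTPases mark later steps, and large ATPases strip factors off before export. Nop2, the methyltransferase whose acetylated mRNA gives the series its title, acts on the RNA of this same subunit. Preimplantation embryos start with inactive nucleolus precursor bodies and build working nucleoli as the embryo begins to make its own ribosomes.

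The injected RNA's target was much lower. Nat10 had 37 reads in the dsNat10 library and 886 in the dsGFP library, a 23.7-fold lower level (95% counting interval 17.1 to 33.9). Some genes close to Nat10 in mean level differed by more, in both directions. The log2 ratio was -3.79 for Nat10, against -5.10 for Herpud1, -5.13 for Ipo13 and 4.80 for Magea8. How common such differences are at that level, and the part of the injected RNA in the Nat10 ratio, was not tested. Nop2 had 5787 reads in dsNat10, against 8365 in dsGFP and was 1.43-fold lower (1.38 to 1.48). The libraries held 28303119 reads (dsNat10) and 29139232 reads (dsGFP). All 10 morula markers examined were present, at 3.85 to 1400 CPM in dsNat10 and 17.4 to 1054 CPM in dsGFP (CPM, scaled counts per 1000000 reads). The summed level of these 10 was 3900 CPM in dsNat10 and 4639 CPM in dsGFP, their median log2 ratio was -0.79, and 4 of them were lower by the 2-fold rule given below. Of 6 cumulus cell markers, 1 was in the table, Amhr2, at 29.1 CPM in dsNat10 and 33.8 CPM in dsGFP. Of 6 blood, endothelial and fibroblast markers, 3 were, summing to 68.6 CPM in dsNat10 and 42.9 CPM in dsGFP, most of it Pecam1. The part of these markers in the results below was not tested.

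As a group, the 60S assembly genes differed little between the libraries. Genes averaging at least 5 CPM were called higher or lower if the log2 ratio, taken on CPM plus 1, reached 1 in size and the 95% counting interval of the plain ratio excluded equality. All 35 genes passed the abundance limit. By this 2-fold rule Surf6 was the 1 gene called higher and Rbm28 the 1 called lower, which is 2.86% in each direction. Among all 8738 genes past that limit, 15.2% were called higher and 15.3% lower. Among the 3546 genes averaging at least 50 CPM, 4.71% were called higher and 4.62% lower, against 1 higher and 0 lower of the 31 assembly genes at that level.

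With a limit of 1.5-fold in place of 2-fold, the genes called higher were Surf6 and Nsa2, and those called lower were Rbm28 and Ddx10. The background of this rule was 25.1% higher and 23.8% lower over all 8738 genes. For those averaging at least 50 CPM it was 13.3% higher and 14.1% lower, while 2 of the 31 assembly genes were higher and 0 lower. The median log2 ratio of the 35 genes was -0.004, beside 0.01 over all genes tested. Their median size of log2 ratio was 0.27, against 0.57 over all genes. At that higher abundance it was 0.25 for the assembly genes and 0.34 for all genes. The log2 ratios of 17 of the 35 lay above 0 and those of 18 below.

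**Figure D1:**
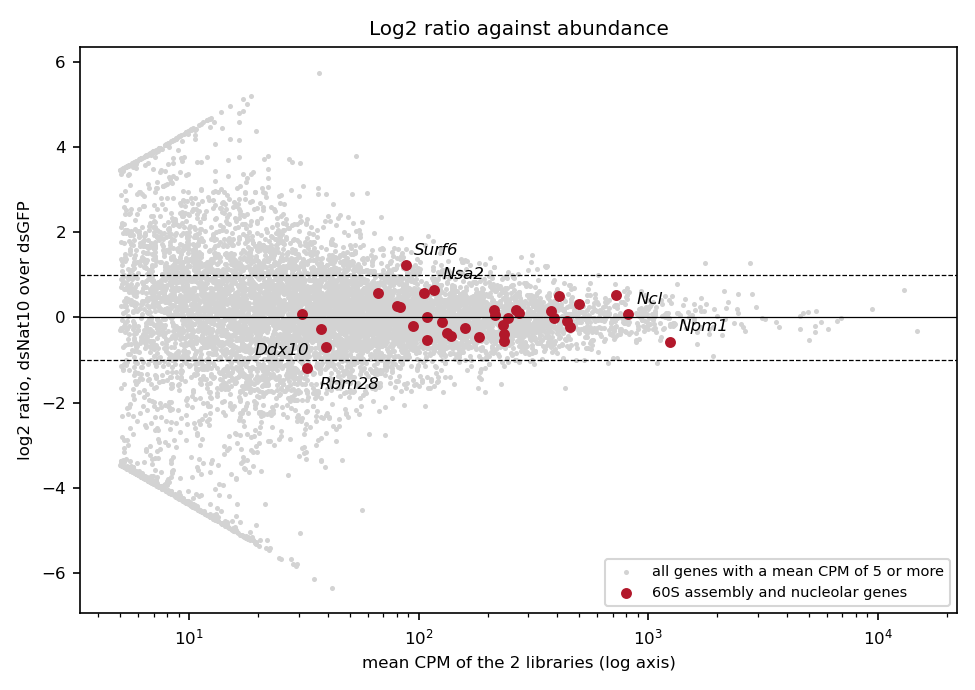
Log2 ratio of dsNat10 over dsGFP (CPM plus 1) against the mean CPM of both libraries on a log axis, for 8738 genes in grey and the 35 assembly genes in red, with dashed lines at a ratio of 1 and -1. The assembly genes lie in the abundant part of the cloud, with Surf6 above the upper line and Rbm28 below the lower line.

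Promoter sequence is shown for the 4 genes past the 1.5-fold limit, as the bases just before a RefSeq transcription start on GRCm38.p6. For Ddx10 the start used lies inside the gene span given below, which ends at 53248170. Part of the Ddx10 run, with its marked GC box, is therefore within that span. All 4 are transcribed from the minus strand, and each run is 80 bases long, written 5′ to 3′ along the gene. Capitals mark a GC box (GGGCGG or its reverse CCGCCC) or an ETS core (CCGGAAG or its reverse CTTCCGG).
Surf6 (chr2:26902888-26902967): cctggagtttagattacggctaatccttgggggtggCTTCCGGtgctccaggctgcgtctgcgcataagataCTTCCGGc
Nsa2 (chr13:97137927-97138006): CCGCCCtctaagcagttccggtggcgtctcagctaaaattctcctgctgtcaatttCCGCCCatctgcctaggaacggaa
Ddx10 (chr9:53248113-53248192): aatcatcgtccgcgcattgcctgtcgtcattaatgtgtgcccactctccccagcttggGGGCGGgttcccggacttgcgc
Rbm28 (chr6:29164725-29164804): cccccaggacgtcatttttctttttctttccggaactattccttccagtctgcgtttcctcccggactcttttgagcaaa
The runs differ in the letters they hold. The ETS letters stand at 2 places in the Surf6 run, the GC box at 2 places in Nsa2 and 1 in Ddx10, and neither in the Rbm28 run. In the 250 bases before the start, Rbm28 also holds a GC box and Ddx10 an ETS core. A match is a string of letters and not a shown binding site.

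The PeBoW complex, in which Pes1, Bop1 and Wdr12 work together in maturation of the large subunit RNA, was nearly level between the libraries. Pes1 had 7001 reads in dsNat10, against 7093 in dsGFP, a ratio of 0.997 (0.965 to 1.03). Wdr12 had 11026 reads in dsNat10, against 11198 in dsGFP, a ratio of 0.995 (0.969 to 1.02), with fractional counts. Bop1 had 2567 reads in dsNat10, against 2172 in dsGFP, a ratio of 1.19 (1.13 to 1.26). The intervals of Pes1 and Wdr12 include equality and that of Bop1 does not, yet all 3 are far inside the 1.5-fold limit. An interval that excludes equality was the rule, found for 31 of the 35 genes (88.6%) and for 89.3% of all 8738 genes tested. Such an interval therefore sets no gene apart. Per length, in the deposited TPM, Pes1 stood at 133 TPM in dsNat10 and 128 TPM in dsGFP, and Wdr12 at 112 TPM in dsNat10 and 119 TPM in dsGFP. Bop1 was the least abundant of the 3, with 58.2 TPM in dsNat10 and 46.8 TPM in dsGFP. The level of Pes1 over that of Bop1 was 2.28 in dsNat10 and 2.73 in dsGFP.

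**Figure D2:**
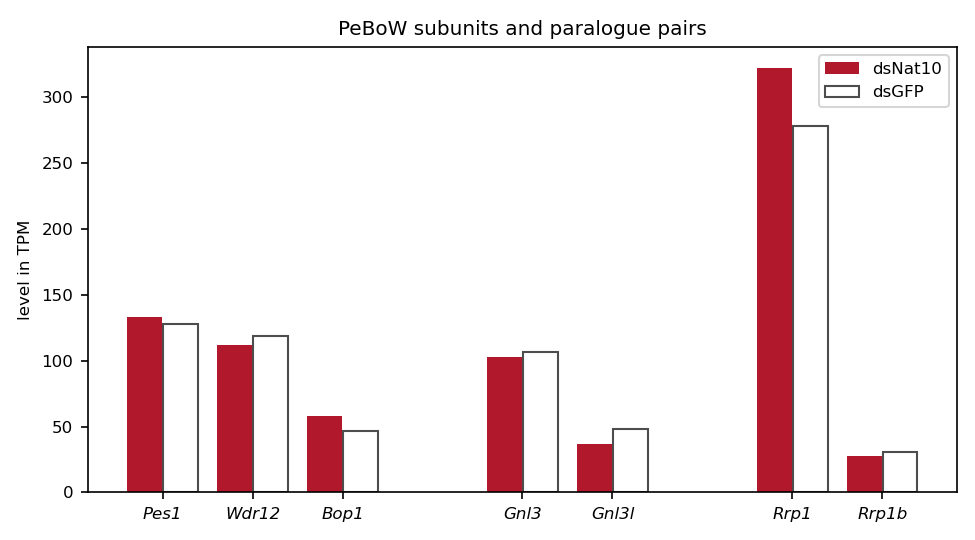
Level in TPM of the PeBoW subunits and of 2 paralogue pairs, with dsNat10 as filled bars and dsGFP as open bars, 1 library each and no error bar. The order of levels within each complex or pair is the same in both libraries, and the gap between Rrp1 and Rrp1b is the widest shown.

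The early and middle assembly factors held both extremes. Surf6 (Entrez gene 20935, GRCm38.p6 chromosome 2, 26890418 to 26902887) encodes a basic nucleolar protein that binds nucleic acid, and its yeast relative Rrp14 acts in ribosome assembly. It had 3525 reads in dsNat10, against 1498 in dsGFP and was 2.38-fold higher (2.24 to 2.53). The log2 ratio of Surf6 was 1.23 in CPM and 1.28 in TPM, and its counts are whole numbers. Nsa2 (Entrez gene 59050, chromosome 13, 97129427 to 97137926), a factor of pre-60S particles, had 4082 reads in dsNat10, against 2616 in dsGFP and was 1.58-fold higher (1.501 to 1.66). The exons of Nsa2 overlap Gfm2 on the opposite strand, which had 1866 reads in dsNat10, against 2931 in dsGFP, a log2 ratio of -0.63. SMART-seq2 reads carry no strand, so those from the shared stretch cannot be assigned. The part of shared reads in the ratio of Nsa2 was not tested.

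Further factors in this role had ratios above 1 but inside the 1.5-fold limit, which is 0.585 on the log2 scale. Noc2l and Mak16 stood just under it. Noc2l, a partner in complexes that move pre-60S particles through the nucleolus in yeast, had 2277 reads in dsNat10, against 1532 in dsGFP, a log2 ratio of 0.58. Mak16, an early pre-60S factor, had 3601 reads in dsNat10, against 2425 in dsGFP, also a log2 ratio of 0.58. Their plain CPM ratios were 1.502 for Noc2l and 1.5003 for Mak16, and the pseudocount of 1 CPM put both under the limit. Both have fractional counts and share exons with a gene on the opposite strand. The partner of Noc2l, Samd11, had 0 reads in dsNat10, against 3 in dsGFP, and the partner of Mak16, Tti2, had 0 reads in dsNat10, against 210 in dsGFP. Mrto4, the nuclear counterpart of the stalk protein Rplp0 on immature particles, had 13692 reads in dsNat10, against 9732 in dsGFP, a ratio of 1.42 (1.38 to 1.46). Its level over that of Rplp0, in TPM, was 0.310 in dsNat10 and 0.186 in dsGFP, a 1.67-fold larger share. Brix1, which takes part in early assembly, had 15746 reads in dsNat10, against 12814 in dsGFP, a ratio of 1.24 (1.21 to 1.27).

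At the low end of this role, Rbm28 (Entrez gene 68272, chromosome 6, 29123573 to 29164724), an RNA-binding protein related to yeast Nop4, had 557 reads in dsNat10, against 1317 in dsGFP. It was 2.34-fold lower (2.12 to 2.59) and is uncertain, because its counts are fractional. The value also depended on the unit, since its log2 ratio was -1.19 in CPM but -0.62 in TPM and -0.63 in FPKM. Counts divided by FPKM give the gene length the authors' program used, up to a constant, and for Rbm28 this length in dsNat10 was 0.709 of that in dsGFP. So the call as 2-fold lower ended in the 2 deposited units that divide by length. Of the other 34 genes, Wdr12 had an implied length more than 5% apart, at 1.10, and over all genes with both FPKM at 1 or more the share was 13.6%.

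Nip7, which binds RNA in pre-60S particles, had 5429 reads in dsNat10, against 8108 in dsGFP, a ratio of 0.676 (0.654 to 0.7002), with fractional counts. Ppan, the relative of yeast Ssf1, had 4404 reads in dsNat10, against 6108 in dsGFP, a ratio of 0.728 (0.701 to 0.757). Ebna1bp2, the relative of yeast Ebp2, had 5761 reads in dsNat10, against 7688 in dsGFP, a ratio of 0.757 (0.732 to 0.783). All 3 were inside the 1.5-fold limit, as were the 7 factors that follow. Rrs1, which helps bring in the 5S particle, had 968 reads in dsNat10, against 1185 in dsGFP, a log2 ratio of -0.27. Rsl1d1 had 12017 reads in dsNat10, against 14150 in dsGFP (log2 ratio -0.22), and Ftsj3, a methyltransferase related to yeast Spb1, 12219 in dsNat10 and 13150 in dsGFP (-0.09). Noc3l had 910 reads in dsNat10, against 866 in dsGFP (0.08), and Nop16 8017 in dsNat10 and 7219 in dsGFP (log2 ratio 0.17).

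The paralogues Rrp1 and Rrp1b, both related to yeast Rrp1, lay on either side of equality. Rrp1 had 11374 reads in dsNat10, against 10328 in dsGFP, a log2 ratio of 0.15. Rrp1b had 2501 reads in dsNat10, against 2900 in dsGFP, a log2 ratio of -0.20, with fractional counts. The level of Rrp1 over that of Rrp1b, in TPM, was 11.5 in dsNat10 and 9.03 in dsGFP. Thus Rrp1 was the main member of the pair in both libraries, and the difference in their log2 ratios was 0.35.

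**Figure D3:**
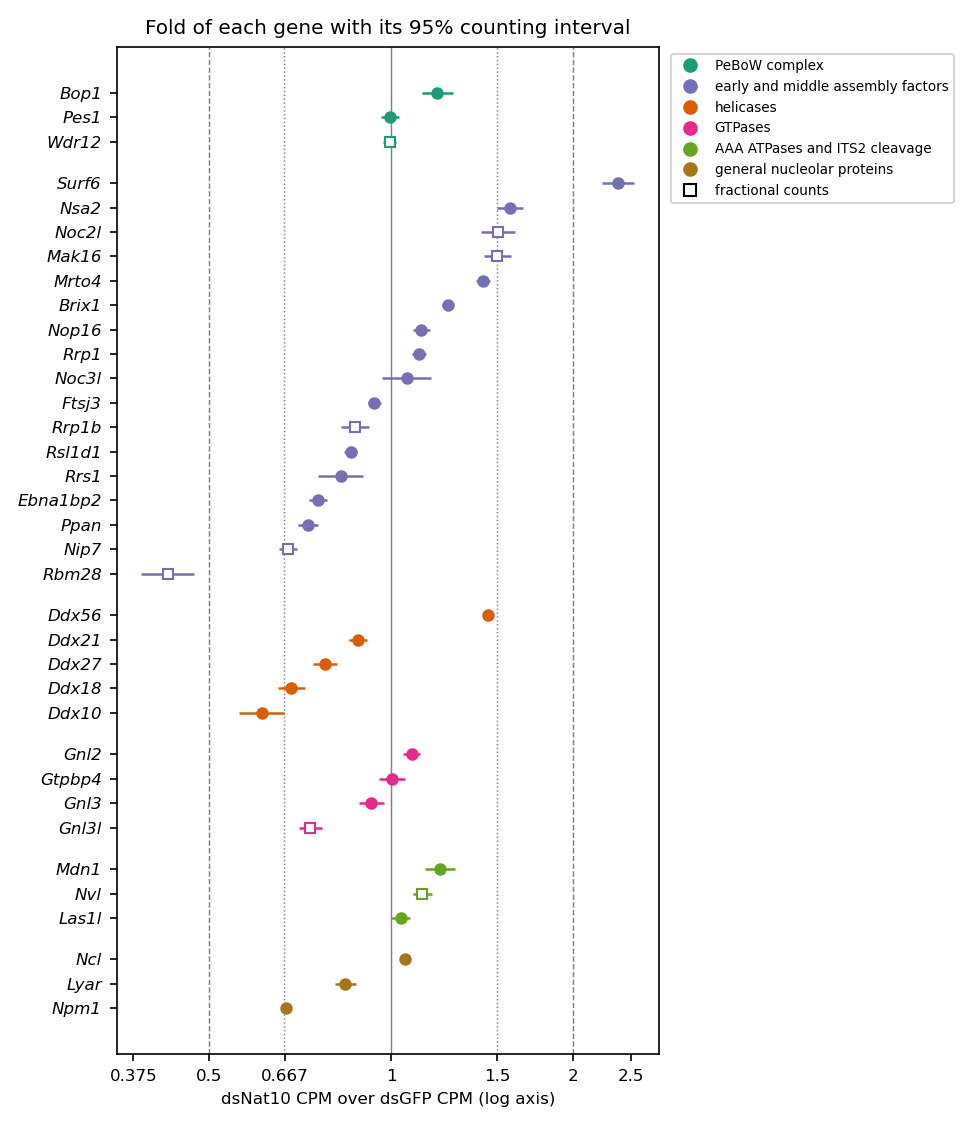
Ratio of dsNat10 CPM over dsGFP CPM on a log axis for each of the 35 genes, by role, with bars for the 95% counting interval, which covers counting error only. Open squares mark fractional counts, and dotted and dashed lines mark 1.5-fold and 2-fold. Surf6 and Rbm28 lie outside the dashed lines, and the PeBoW and GTPase genes lie between the dotted lines.

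Of the 5 DEAD-box helicases in the list, RNA-dependent ATPases that remodel the precursor particle, 4 had a ratio below 1, as did 49.5% of all genes tested. The median log2 ratio of the 5 was -0.36. Ddx10 (Entrez gene 77591, chromosome 9, 53098454 to 53248170) had 851 reads in dsNat10, against 1406 in dsGFP and was 1.64-fold lower (1.501 to 1.78). Its yeast relative Dbp4 is known mainly from the small subunit pathway. Ddx18, the relative of yeast Has1, had 2507 reads in dsNat10, against 3701 in dsGFP, a ratio of 0.684 (0.650 to 0.720). Ddx27, related to yeast Drs1, had 3322 reads in dsNat10, against 4310 in dsGFP, a ratio of 0.779 (0.744 to 0.815). Ddx21, which also acts with RNA polymerases, had 6254 reads in dsNat10, against 7157 in dsGFP, a ratio of 0.883 (0.853 to 0.913). Ddx56 went the other way, with 24302 reads in dsNat10, against 16982 in dsGFP, a ratio of 1.45 (1.42 to 1.47). Ddx56 was also the most abundant helicase of the 5 by TPM, at 667 TPM in dsNat10 and 440 TPM in dsGFP. In the wider pathway list below, the log2 ratios of DEAD-box helicases were -0.27 for Ddx24, 0.01 for Ddx54 and 0.42 for Ddx31. They were 0.59 for Ddx55 and 1.64 for Ddx51, the last averaging 7.11 CPM. Lower ratios were thus not shared by the helicases of both lists.

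The 4 nucleolar GTPases were all inside the 1.5-fold limit. Gnl2, related to yeast Nog2, had 8093 reads in dsNat10, against 7556 in dsGFP, a log2 ratio of 0.11. Gtpbp4, the mouse relative of yeast Nog1, had 3114 reads in dsNat10, against 3129 in dsGFP, a log2 ratio of 0.01. Gnl3, or nucleostemin, is a stem cell GTPase of the nucleolus and had 3465 reads in dsNat10, against 3771 in dsGFP (log2 ratio -0.11). Gnl3l, its paralogue, had 3344 reads in dsNat10, against 4591 in dsGFP (log2 ratio -0.44), with fractional counts. Per length, Gnl3 stood at 103 TPM in dsNat10 and 106 TPM in dsGFP, and Gnl3l at 37.0 TPM in dsNat10 and 48.2 TPM in dsGFP. The level of Gnl3 over that of Gnl3l was 2.78 in dsNat10 and 2.21 in dsGFP.

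The large ATPases and the cutting enzyme of the second internal spacer had ratios slightly above 1. Mdn1, a giant ATPase that pulls factors off the particle, had 2519 reads in dsNat10, against 2111 in dsGFP, a log2 ratio of 0.27. Nvl, an ATPase that acts on pre-60S particles, had 6458 reads in dsNat10, against 5793 in dsGFP (0.17), with fractional counts. Las1l, the spacer endonuclease, had 6248 reads in dsNat10, against 6084 in dsGFP (0.05). Nol9, the kinase that pairs with Las1l and belongs to the wider pathway list below, had 2661 reads in dsNat10, against 1725 in dsGFP, a ratio of 1.56 (1.47 to 1.66), with fractional counts. The level of Las1l over that of Nol9 was 3.47 in dsNat10 and 5.18 in dsGFP, in TPM.

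Among the general nucleolar proteins, Npm1 and Ncl, the most abundant nucleolar proteins of many cells, differed from each other. Npm1 (Entrez gene 18148, chromosome 11, 33152498 to 33164142), a histone chaperone of the outer nucleolus, had 28614 reads in dsNat10, against 43043 in dsGFP, a ratio of 0.672 (0.662 to 0.682). Ncl, an RNA-binding protein of ribosomal RNA transcription and processing, had 24006 reads in dsNat10, against 23023 in dsGFP, a ratio of 1.053 (1.03 to 1.07). Lyar, a zinc finger protein of the nucleolus, had 4130 reads in dsNat10, against 4962 in dsGFP, a log2 ratio of -0.25. The level of Npm1 over that of Ncl, in TPM, was 5.86 in dsNat10 and 9.14 in dsGFP. Levels of different genes in TPM depend on the gene lengths used. The longest coding transcript in GENCODE M21 is 1633 bases for Npm1 and 8202 bases for Ncl, and the part of length in this gap was not tested. None of these genes met either size rule.

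Levels per length spanned a wide range, and their order was much alike in both libraries. Npm1 was highest, with 1235 TPM in dsNat10 and 1772 TPM in dsGFP. Mrto4 followed, with 686 TPM in dsNat10 and 464 TPM in dsGFP, and then Ddx56. The lowest was Mdn1, with 7.32 TPM in dsNat10 and 5.82 TPM in dsGFP, and Noc3l and Rbm28 stood just above it in dsGFP, with Rbm28 under Noc3l in dsNat10. The median level was 103 TPM in dsNat10 and 106 TPM in dsGFP, against 21.2 TPM (dsNat10) and 20.2 TPM (dsGFP) over all genes tested. Spearman's rho between the libraries was 0.965 across the 35 genes. It was 0.867 across all genes tested and 0.932 across the 3546 averaging at least 50 CPM, against 0.956 across the 31 assembly genes at that level. These correlations run across genes, which are not independent replicates.

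The summed level of the 35 genes was 6318 TPM in each library. Within that sum the share of Npm1 was 19.5% in dsNat10 and 28.1% in dsGFP. Without Npm1, the other 34 summed to 5083 TPM in dsNat10 and 4546 TPM in dsGFP. The equal sums therefore join a lower Npm1 level in dsNat10 with a higher sum of the rest. The largest gaps within the rest were those of Ddx56 (667 TPM in dsNat10, 440 in dsGFP) and Mrto4 (686 and 464). The higher sum does not describe the typical gene. In TPM the median log2 ratio of the 35 genes was 0.05, beside 0.06 over all genes tested. In CPM, 17 of the 35 log2 ratios lay above 0 and 18 below.

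**Figure D4:**
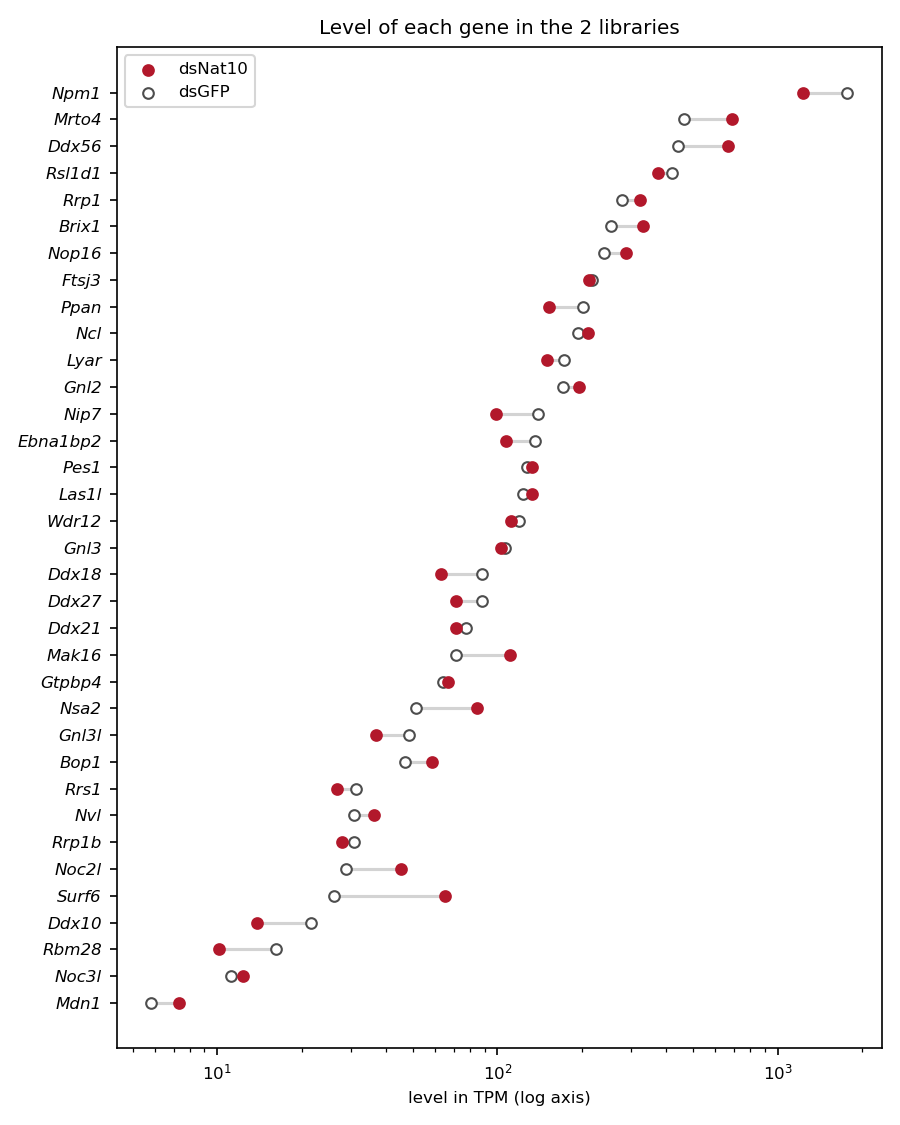
Level in TPM on a log axis for each of the 35 genes in dsNat10 (filled) and dsGFP (open), ordered by the dsGFP level, 1 library each. Npm1 is at the top in both libraries and Mdn1 at the bottom, and the widest gap on this log axis is that of Surf6.

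Transcript length, transcript GC content and promoter letters were also compared, as features that the gene list did not use. The median length of the longest coding transcript in GENCODE M21 was 2714 bases for the 35 genes and 2997 bases for 8488 tested genes that matched. Its median GC content was 48.4% for the 35 genes and 49.95% for the tested genes. RefSeq promoters were found for 29 of the 35 genes, and in the 250 bases before the start none held the E-box CACGTG, which 10.4% of 7106 tested genes and 6.86% of all 27025 genes in the promoter table held. The absence says only that these letters are not in this window. The GC box was found in 19 of the 29, or 65.5%, against 64.9% of tested genes, and the ETS core in 7, or 24.1%, against 18.5%. The AAGATGG core of YY1 and the TCTCGCG element were each found in 1 of the 29, or 3.45%, against 5.63% and 5.87% of tested genes. All motifs were searched on both strands, and a reversed GC box can share letters with an ETS core. Over all genes in the promoter table, the GC box was in 35.4%, the ETS core in 7.83%, the YY1 core in 5.18% and the TCTCGCG element in 2.42%.

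Small nucleolar RNAs lie within 3 of the 35 genes on the same strand, which is 8.57% against 2.24% of 8538 tested genes in GENCODE M21. These 3 hosts are Ppan, Gnl3 and Ncl, which together hold 8 of them, among them Snord19 and Snord69 in Gnl3 and Snora75 and Snord82 in Ncl. Their log2 ratios were -0.45 for Ppan, -0.11 for Gnl3 and 0.08 for Ncl, so no host was past either limit.

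The other genes of large subunit assembly, 47 names written down from general knowledge of the pathway, were all in the table, and 46 averaged at least 5 CPM. By the 2-fold rule 2 were higher and 4 lower, set against the same backgrounds of 15.2% and 15.3%. By the 1.5-fold rule 6 were higher and 8 lower, beside 25.1% and 23.8% of all genes. Among the 35 of them averaging at least 50 CPM, 0 were higher and 2 lower by the 2-fold rule. The shares of all genes at that level were 4.71% and 4.62%. By the 1.5-fold rule 3 of the 35 were higher and 6 lower, beside 13.3% and 14.1% of all genes at that level. The median size of log2 ratio was 0.31 for these 35 and 0.34 for all genes at that level. For the 46 genes averaging at least 5 CPM, the median log2 ratio was -0.02. Their median size of log2 ratio was 0.41, beside 0.57 over all genes tested. Among those averaging at least 20 CPM, the highest were Sdad1 (4250 reads in dsNat10, against 2460 in dsGFP, 1.75-fold higher, 1.66 to 1.84), Nol9, Mybbp1a (24717 reads in dsNat10, against 16405 in dsGFP) and Ddx55 (1387 in dsNat10 and 918 in dsGFP). Mybbp1a, a repressor partner of Myb in the nucleolus, was 1.52-fold higher (1.49 to 1.55), and Ddx55, a helicase, 1.53-fold higher (1.40 to 1.66).

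The lowest at the same abundance were Senp3, Spata5, Llph and Rexo4. Senp3, a SUMO protease that acts on Npm1 and on the Pelp1 complex, had 970 reads in dsNat10, against 2920 in dsGFP and was 2.98-fold lower (2.77 to 3.21). The subunits around it did not share that ratio, with a log2 ratio of -0.40 for Pelp1, 0.21 for Tex10, with fractional counts, and 0.06 for Wdr18, chosen after their values were seen. Llph had 2387 reads in dsNat10, against 5066 in dsGFP and was 2.10-fold lower (2.0005 to 2.21). Rexo4, an exonuclease, had 1089 reads in dsNat10, against 2151 in dsGFP and was 1.96-fold lower (1.82 to 2.10), short of the 2-fold rule. Spata5, the ATPase related to yeast Drg1, had 622 reads in dsNat10, against 1476 in dsGFP (2.35-fold lower, 2.14 to 2.58) but has fractional counts and is uncertain. The most abundant gene of the list by TPM was Eif6, which keeps the new large subunit from joining the small one too early, with 42386 reads in dsNat10, against 30233 in dsGFP, a ratio of 1.42 (1.40 to 1.44).

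The other 3 genes of that list called by the 2-fold rule were named after their values were seen, and all 3 averaged under 20 CPM. Efl1, the GTPase that releases Eif6, had 0 reads in dsNat10, against 293 in dsGFP. Set against a floor of 3 reads in the dsNat10 library, Efl1 was 96.7-fold lower, and its counting interval reached down to 78.1-fold. Its mean of 5.08 CPM was just past the limit of 5 CPM. Urb1 had 863 reads in dsNat10, against 261 in dsGFP (3.34-fold higher, 2.91 to 3.85), and Ddx51 had 322 in dsNat10 and 85 in dsGFP (3.83-fold higher). Among genes averaging at least 20 CPM, the 2 higher calls were gone.

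**Figure D5:**
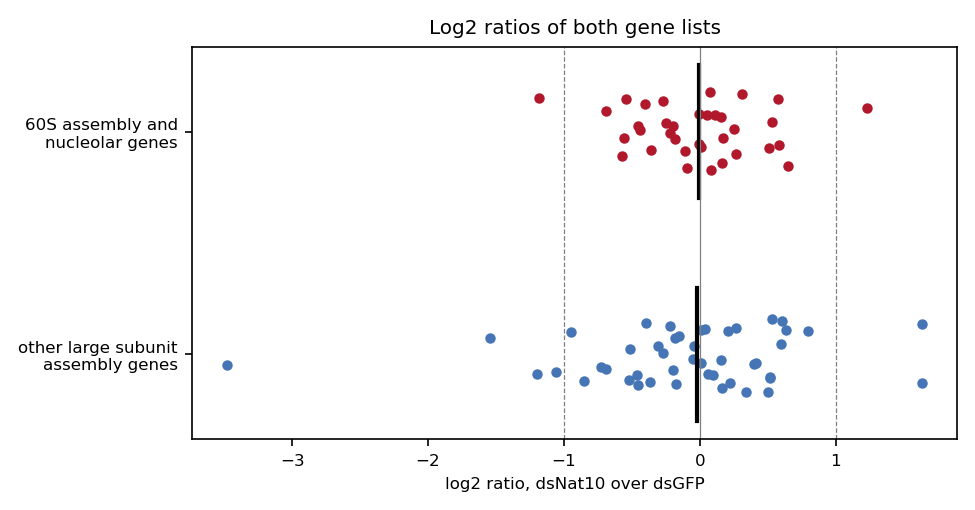
Log2 ratio of dsNat10 over dsGFP (CPM plus 1) for the 35 assembly and nucleolar genes and for the 46 other large subunit assembly genes averaging at least 5 CPM, with a black bar at each median and random vertical scatter. Both medians lie near 0, and the point farthest left is Efl1, with 0 reads in dsNat10.

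Beside these genes, the 44 small subunit assembly genes examined had a median log2 ratio of -0.13 and 47 large subunit ribosomal proteins one of -0.22, and 15 genes of RNA polymerase I and its factors one of 0.18. With 1 library per group none of these differences between lists was tested, and nothing is called particular to the large subunit factors.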

How the data were processed

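Poly(A) RNA from injected mouse morulae was measured in 2 SMART-seq2 libraries, 1 for dsNat10 and 1 for dsGFP. Trim Galore for trimming, HISAT for mapping to GRCm38 and HTSeq for counting are named in the labels, and their versions and the annotation are not stated there. The authors deposited estimated counts, FPKM and TPM per gene in 1 table. Counts were fractional for 21.2% of the genes tested, while HTSeq usually gives whole numbers. Which program made the deposited values is therefore not known. Estimated counts, some of them fractional, were rounded to whole numbers, and genes with fractional counts are called uncertain, since their reads may be shared with a copy or an overlapping gene. A gene length that differs between libraries enters the deposited TPM and FPKM values and not the counts.

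CPM was scaled by TMM (edgeR 4.0.16, R 4.3.3); this moved log2 ratios by -0.03 against plain totals. Log2 ratios used a pseudocount of 1 CPM, while folds are plain CPM ratios given with an exact Clopper-Pearson 95% interval. Intervals and floors (3 counts) cover the counting error of reads only. Amplified reads lacking molecular identifiers do not stand for separate molecules, so the counting error of molecules is not covered. No p-value was computed, and the count tests that need replicates could not be used. The call rules were run on simulated Poisson counts, which hold only the counting error that the intervals assume. That run therefore gives no error rate for calls between real libraries.

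Genes named are Nat10, Nop2, every gene of the list, and from the wider list the 4 highest and 4 lowest at a mean CPM of 20 or more plus the most abundant. Efl1, Urb1, Ddx51, Pelp1, Tex10 and Wdr18 were named after their values were seen, and so were the genes that overlap exons of the listed ones. Ddx24, Ddx31, Ddx54, Herpud1, Ipo13 and Magea8 were also named after their values were seen, and were not followed one by one under the alternatives. The gene lists were chosen with earlier results of these libraries known, and promoter motifs other than the E-box were chosen after expression values had been seen. Coordinates are RefSeq GRCm38.p6, matched by Entrez gene for all 35 genes, and promoters were credited to RefSeq. Protein sequences were not used here. Alternatives were plain totals, DESeq2 1.42.0 size factors, other filters, a pseudocount of 0.1, TPM, FPKM and leaving out fractional counts.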

Additional observations from a re-analysis of the deposited data

How the results depend on the processing

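No paired analysis was possible because there is 1 library per group, and for the same reason no library could be left out. The 1 gene called 2-fold higher, Surf6, held under all 8 alternatives. The 1 called lower, Rbm28, was lost (count 0) in TPM, in FPKM and without fractional counts. The 2 genes at least 1.5-fold higher became 4 with plain totals, 5 in TPM, 4 in FPKM and 3 with a pseudocount of 0.1. Genes near the limit passed it there, such as Noc2l and Mak16 with plain totals, in TPM and in FPKM. The 2 at least 1.5-fold lower became 1 without fractional counts and 3 with DESeq2 size factors, where Npm1 passed the limit. The median log2 ratio of -0.004 was 0.0541 in TPM, where that over all genes was 0.06, and its sign also changed with plain totals (0.02), FPKM (0.02) and without fractional counts (0.01). The 2 higher genes of the wider assembly list became 0 at a mean CPM of 20 or more. No named gene called 2-fold changed direction, and of 52 genes, 6 of which were added after the data were seen, 1 changed sign with DESeq2 size factors (Gtpbp4), 2 with plain totals (Wdr12 and Pes1) and 1 each in TPM and FPKM (Pes1). Depth gives each of the 35 genes at least 557 reads per library, while the spread between pools of embryos could not be measured.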

Other observations

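Of the 35 genes, 9 have exons that overlap another coding gene in GENCODE M21, all on the opposite strand, which is 25.7% against 17.8% of tested genes. Because the kit does not mark strand, reads of the shared stretches cannot be assigned. The partners ranged widely in reads. Carf, beside Wdr12, had 51 reads in dsNat10 and 0 in dsGFP, and Dnali1, beside Gnl2, had 179 in dsNat10 and 0 in dsGFP. Mroh1, beside Bop1, had 810 reads in dsNat10 and 36 in dsGFP, while Bop1 had 2567 in dsNat10 and 2172 in dsGFP. Pbrm1, beside Gnl3, had 533 reads in dsNat10 and 250 in dsGFP, and Hsf2bp, beside Rrp1b, had 575 in dsNat10 and 576 in dsGFP. The part of shared reads in the ratios of Bop1 and Gnl3 was not tested.

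The log2 ratios of the 35 genes showed little relation to transcript length (Spearman's rho -0.04) or to mean CPM (0.05), across genes that are not independent replicates. Over all tested genes these values were 0.08 and -0.03.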
